A study of Mus musculus with 98 samples.

Results

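The 85 genes described here encode the subunits of oxidative phosphorylation that are made in the nucleus, together with a few close relatives that carry the same symbols. They were taken from 23420 gene symbols listed in both deposited tables by the start of the symbol (Nduf followed by a, b, c, s or v, Uqcr, Cox4i to Cox8, Atp5, and Sdha to Sdhd), with assembly factors named Ndufaf and pseudogenes left out. By symbol, 38 belong to complex I, 4 to complex II, 8 to complex III, 18 to complex IV and 17 to complex V. The measurements are full-length transcript abundances of single innate lymphoid cells (ILCs) from the mouse intestine, in TPM, an abundance that is scaled to gene length and to the same total in every cell.

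WT-ILCs were sorted as CD45.2+Lin-CD127+ cells from wild type C57BL/6 mice of the CD45.2 strain aged 8 weeks. R9-ILCs, regenerated from pluripotent stem cells as the title of the series has it, were CD45.2+GFP+Lin-CD127+ cells taken 3 weeks after transplantation into Rag2-/-Il2rg-/- recipients, hosts that lack their own T, B and innate lymphoid cells, and their label gives the C57BL/6 strain. The age of the recipients and the number of animals are not given in the sources used here. The R9 titles come in a series of 32 cells without a numeric ending and a series of 35 cells with the ending 1, called no-ending and ending-1 R9 cells below. What the endings stand for is not stated, so cell state, sort and library run cannot be told apart as a source of a difference between the 2 R9 series. The 31 WT columns were reduced to 22 cells by averaging columns that correlated closely over the genes both detected (r from 0.844 to 0.995). The joined columns shared between 24.0093% and 92.2% of the genes detected in either, 4 of the pairs 31.1% or less, and in 1 case a column was joined with a pair that carries another cell number, so that joined columns are 1 cell is an assumption.

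Oxidative phosphorylation moves electrons from NADH and succinate to oxygen and uses the resulting proton gradient to make ATP. Complex I takes electrons from NADH and complex II from succinate, complex III passes them to cytochrome c, complex IV passes them on to oxygen, and complex V is the ATP synthase. Each complex other than complex II also holds subunits encoded by mitochondrial DNA, so nuclear transcripts show only one side of its assembly, and many of the nuclear genes are known to have promoter motifs of the factors NRF1, the ETS protein GABP and YY1. In lymphocytes, reliance on this pathway is known to vary with activation and tissue.

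Promoters of 5 members are shown because they hold such a motif and because their genes recur below. They belong to complexes I, II, III and V. Each is the run of 150 bases just before the RefSeq start site on GRCm38.p6, printed 5′ to 3′ on the gene's strand, with the motif in capitals (NRF1 letters GCATGCGC on either strand, or ETS letters CCGGAAGT on either strand).
Ndufa6, chr15:82354292-82354441, minus strand: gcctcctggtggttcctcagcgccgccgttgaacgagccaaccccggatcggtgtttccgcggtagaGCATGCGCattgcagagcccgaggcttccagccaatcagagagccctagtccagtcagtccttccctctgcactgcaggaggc
Sdhb, chr4:140961121-140961270, plus strand: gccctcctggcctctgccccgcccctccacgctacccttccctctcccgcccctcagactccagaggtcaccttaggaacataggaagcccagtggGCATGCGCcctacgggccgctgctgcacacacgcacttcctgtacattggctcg
Uqcrh, chr4:116075071-116075220, minus strand: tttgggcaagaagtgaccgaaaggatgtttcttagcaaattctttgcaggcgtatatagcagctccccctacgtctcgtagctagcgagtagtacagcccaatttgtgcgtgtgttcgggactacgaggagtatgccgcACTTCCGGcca
Atp5k, chr5:108434400-108434549, minus strand: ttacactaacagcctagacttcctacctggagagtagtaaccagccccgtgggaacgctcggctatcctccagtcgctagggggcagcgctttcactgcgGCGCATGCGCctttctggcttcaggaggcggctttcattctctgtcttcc
Atp5g2, chr15:102671048-102671197, minus strand: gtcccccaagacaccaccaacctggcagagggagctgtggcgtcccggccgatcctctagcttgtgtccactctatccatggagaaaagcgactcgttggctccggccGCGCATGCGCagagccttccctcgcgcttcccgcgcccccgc

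The search window for the counts was 250 bases before to 50 after the start site, and 67 members had an entry. The NRF1 letters were in 10 member promoters (14.9%), against 2.80% of the 27025 promoters in the table. ETS letters were in 5 member promoters (7.46%) against 4% of all, and the YY1 letters AAGATGGC, on either strand, in 8 (11.9%) against 2.88%. The short CCAAT box was in 29 (43.3%) against 37.9%. NRF1 or ETS letters were in 14 (20.9%) against 6.56%. These are matches of letters only. In Atp5k and Atp5g2 the NRF1 letters overlap their own reverse complement, which gives the longer run of capitals.

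Of the 7 general ILC markers, Il7r, Id2 and Il2rg were detected in every cell and Rora in 90.9% of WT and 100% of both R9 series. Ptprc was detected in 68.2%, 100% and 54.3% of WT, no-ending and ending-1 cells, Thy1 in 31.8%, 15.6% and 71.4%, and Gata3 in 22.7%, 68.8% and 28.6%. Il17a was detected in 0 cells. Markers of other cells also moved with the sets. Summed epithelial markers (12 of 12 detected in WT, 11 in no-ending, 12 in ending-1 R9 cells) had a median of 7592 TPM in WT (15.5 to 101163), 741 in no-ending (0 to 435758) and 51.1 in ending-1 R9 cells (0.753 to 13912). Mast cell markers were at a median 0 in WT and ending-1 cells and 1349 TPM in no-ending R9 cells (61.1 to 4659), where 6 of 6 were detected in at least 1 cell. There Tpsb2 was detected in 96.9% of cells, Cpa3 in 93.75%, Cma1 in 87.5%, Mcpt4 in 25%, Tpsab1 in 6.25% and Fcer1a in 3.125%. Tpsb2 was listed at 0 in every cell of the other sets, while Cpa3 was detected in 8.57% of ending-1 and Cma1 in 4.55% of WT cells. Macrophage and dendritic markers were at 444.5 TPM in no-ending R9 cells (39.99 to 3920) and at 1.49 and 0 in the others. Erythroid markers had medians of 9.75, 169.6 and 94.1 TPM in WT, no-ending and ending-1 cells, with highest cells at 862, 10989 and 194563 TPM. T cell markers had medians of 1.82, 0 and 3.55 TPM in the same order. Among them Cd3g was detected in 50%, 28.1% and 71.4% of cells and Cd4 in 27.3%, 9.38% and 0%. The others were rare or undetected: Cd3e in 0%, 3.125% and 2.86%, Cd3d in 4.55%, 0% and 2.86%, and Cd8a in 0% of each set. B cell markers were at a median 0 in every set. No-ending cells also had a single gene at 10% or more of TPM in 26 of 32 cells, against 5 of 22 WT and 1 of 35 ending-1 cells.

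The members were not detected alike in the 3 sets of cells. A member was called detected in a cell at 1 TPM or more. The lowest, median and highest numbers of the 85 members detected per cell were 24, 59.5 and 77 in WT, 15, 38 and 47 in no-ending R9 cells, and 57, 67 and 77 in ending-1 R9 cells. The 2 R9 series did not overlap, and the WT cells spanned both. All genes detected per cell differed far less between WT and no-ending R9 cells, with lowest, median and highest counts of 793, 2092.5 and 7518 in WT, 1187, 2082.5 and 2989 in no-ending and 1913, 2429 and 6042 in ending-1 R9 cells.

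**Figure D1:**
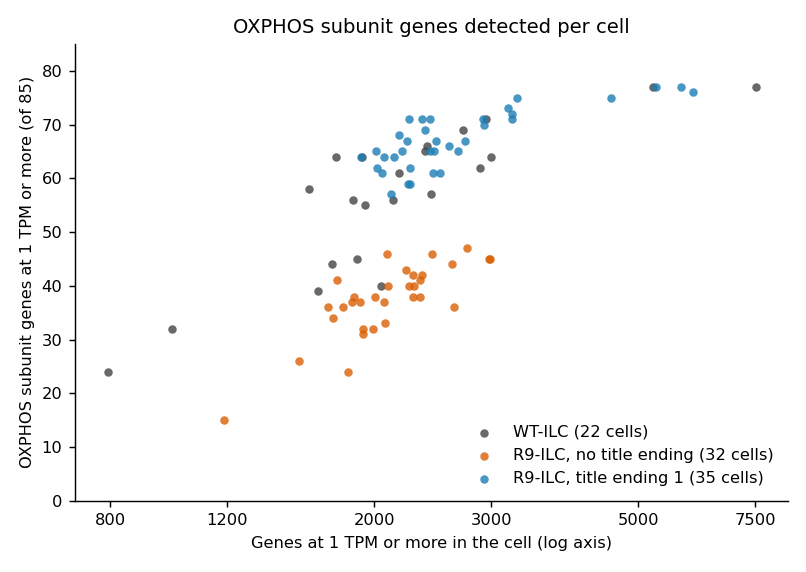
Number of subunit genes at 1 TPM or more in each cell (y axis, of 85) against the number of all genes at 1 TPM or more (x axis, log scale), with 1 point per cell. No-ending R9 cells reach at most 47 subunit genes and ending-1 R9 cells hold at least 57, also where both detect a similar number of genes.

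The detection limit does not mean the same in the 3 sets. Of the member values in no-ending R9 cells, 52.5% were listed at 0 and only 0.158% lay between 1 and 10 TPM. In ending-1 R9 cells 13.9% were at 0 and 17.3% between 1 and 10 TPM, and in WT 27.1% and 8.86%. TPM keeps no depth, and whether an exact 0 is a failed estimate or an absent transcript was not tested. Gapdh, used by every cell, was listed at 0 in 24 of 32 no-ending, 1 of 35 ending-1 and 9 of 22 WT cells. Other widely used genes differed: Tpt1 was at 0 in 9, 1 and 4 cells of these sets, and Actb, B2m and Eef1a1 in 0 cells of each. Counts were therefore also made at 10 TPM, where the median cell held 49.5 members in WT, 38 in no-ending and 51 in ending-1 R9 cells. The order of the medians stayed, and WT and ending-1 R9 cells were then close. Over all genes the order at 10 TPM was another one, with a median 1490.5 genes in WT, 1933.5 in no-ending and 1594 in ending-1 R9 cells. The lowest and highest cells at 10 TPM are not given, so the lack of overlap between the R9 series is stated for 1 TPM only.

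Each set was treated as 1 sample, since each library is 1 cell and no animal is named, so the comparisons below carry no test and no p-value. Of the 85 members, 79 had a mean of at least 1 TPM over the 3 sets. The other 6 (Ndufa4l2, Cox4i2, Cox6a2, Cox7b2, Cox8b and Cox8c) are isoforms known from muscle, testis, lung or low oxygen, and each was listed below the detection limit in every cell.

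Against WT, 37 of the 79 members were detected in a share of no-ending R9 cells that was lower by 25 percentage points or more, and none in a share higher by as much. Among the 2539 genes in the members' range of mean TPM, 17.3% were lower and 4.21% higher by this measure, against 46.8% and 0% of the members. At 10 TPM, 24 members were lower (background 5.79%) and 2, Ndufa10 and Atp5f1, higher (background 15.8%). Between these sets the background thus leaned the other way at 10 TPM, while the members did not. Against the 9 WT columns with ending 1 the counts were closer to each other: 15 members were lower and 7 higher, with 5.002% and 24.1% of the background genes. These columns detected far fewer genes, a median 1144, against 2161 in the WT columns with ending 2 and 2082.5 in no-ending R9 cells. Against the 21 WT columns with ending 2, 38 were lower and 0 higher, and with all 31 WT columns counted as cells, 29 were lower.

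Between ending-1 R9 cells and WT the same count gave 8 members higher and 0 lower at 1 TPM, with backgrounds of 18.7% and 1.81%. The 8 were Ndufs4, Ndufa6, Ndufa8, Uqcrc2, Uqcrh, Cox5b, Atp5d and Atp5g2, and their share of 10.1% was below the background. At 10 TPM 4 were higher (Ndufs4, Ndufa6, Cox5b and Atp5g2, background 6.89%) and 1 lower (Sdhc, background 2.68%). With only the 9 WT columns of ending 1, 55 members were higher at 1 TPM, beside 54.9% of the background genes. Those columns detected a median 1144 genes, against 2429 in ending-1 R9 cells.

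Between the 2 R9 series, 60 of 79 members were detected in a share of ending-1 cells larger by 25 points or more. In a share smaller by as much, 0 were detected. The backgrounds were 37.7% and 3.47%. At 10 TPM 36 were higher (background 10.6%) and 1, Ndufa9, lower (background 14%). This comparison shares its no-ending cells with the comparison to WT above, so the 2 results are not independent. In cells with 1800 to 3000 detected genes only, 54 members were higher in ending-1 than in no-ending R9 cells (68.4%, background 26.9%) and 42 lower in no-ending R9 cells than in WT (53.2%, background 20.0079%). Without the cells at 1000 TPM or more of epithelial markers, 46 of 79 members (58.2%) were lower by 25 points or more in no-ending R9 cells than in WT (19 and 5 cells), and without cells with such a dominant gene, 34 (43.0380%) were (6 and 17 cells). The background rose to 26.2% in both. The part of mast cell and macrophage transcripts in the results was not tested, as every no-ending cell held mast cell marker transcripts.

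**Figure D2:**
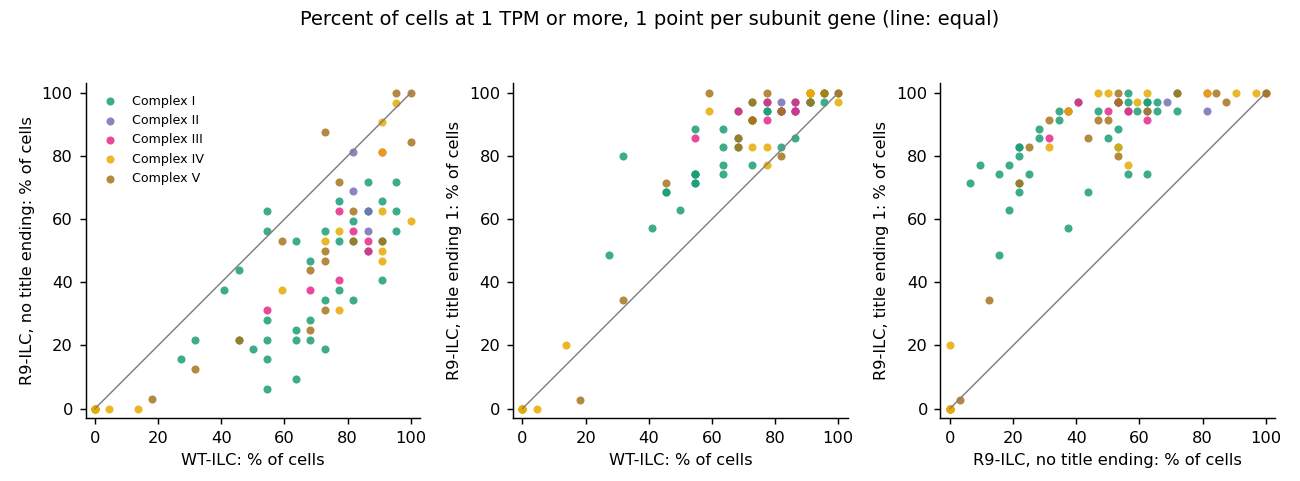
Percent of cells at 1 TPM or more for each subunit gene, 1 point per gene coloured by complex, in the 3 pairings of the sets. For no-ending R9 cells against WT nearly all genes lie below the line of equal shares, for ending-1 against no-ending R9 cells over it, and for ending-1 R9 cells against WT close to it or over it.

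Of the 37 complex I members above the filter, 21 (56.8%, background 17.3%) were detected in fewer no-ending R9 cells than WT cells by 25 points or more, and 32 (86.5%, background 37.7%) in more ending-1 than no-ending cells. In the same order the shares were 25% and 75% for complex II, 62.5% and 87.5% for III, 38.5% and 53.8% for IV, and 29.4% and 64.7% for V. At 10 TPM the complex I counts were 14 (background 5.79%) and 20 (background 10.6%). The median cell detected 26.5 of 38 in WT, 15.5 in no-ending and 31 in ending-1 R9 cells. Complex I held a median 2.11% of a cell's TPM in WT (0.0488% to 7.06%), 0.628% in no-ending (0.0574% to 19.6%) and 1.85% in ending-1 R9 cells (1.18% to 2.56%). The ending-1 cells thus lay within a narrow band, and the no-ending cells reached both below and above it.

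Ndufa12, an accessory subunit of the complex I arm that reaches into the matrix (chr10:94198720-94221443, plus strand), had the lowest log2 ratio of mean TPM of all members for no-ending R9 cells over WT. Its lowest, median and highest TPM were 0, 169 and 24296 in WT, 0, 0 and 181 in no-ending, and 0, 296 and 1409 in ending-1 R9 cells. It was detected in 12 of 22 WT cells (54.5%, exact Clopper-Pearson 95% interval 32.2% to 75.6%), 2 of 32 no-ending cells (6.25%, 0.766% to 20.8%) and 25 of 35 ending-1 cells (71.4%, 53.7% to 85.4%). These intervals cover counting error only. The mean was 1882 TPM in WT, 6.27 in no-ending and 337 in ending-1 R9 cells, a log2 ratio (pseudocount 1 TPM) of -8.02 for no-ending over WT and 5.54 for ending-1 over no-ending cells. Zeros are present in all 3 sets, so the sets overlap.

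Ndufab1, the mitochondrial acyl carrier protein that also sits in complex I, had the widest gaps in detection in the complex, 54.3 points below WT and 67.8 below ending-1 cells. It was detected in 14 of 22 WT, 3 of 32 no-ending and 27 of 35 ending-1 cells. Its medians were 43.7, 0 and 378 TPM. Ndufb4, a membrane-arm subunit, was detected in 16, 6 and 27 cells of the same sets, with medians of 353, 0 and 364 TPM. Ndufa2, whose gene shares exon sequence with Tmco6 on the other strand, was detected in 20, 13 and 34 cells. For all 3 genes the median no-ending cell was at 0 and the median cells of the other sets were not.

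Core subunits gave smaller or larger gaps. Ndufs1, the iron-sulfur subunit next to the NADH site, was detected in 6, 5 and 17 cells (27.3%, 15.6% and 48.6%), and Ndufv1, which binds NADH, in 10, 14 and 24 (45.5%, 43.8% and 68.6%). Ndufs7, which carries the last iron-sulfur cluster before ubiquinone, was detected in 18, 11 and 33 cells, and Ndufs8 in 21, 20 and 34. Ndufs4, an accessory subunit needed for a stable complex, was detected in 31.8% of WT, 21.9% of no-ending and 80% of ending-1 cells, and its mean was 26.01, 39.03 and 202 TPM. Its log2 ratio of 2.91 for ending-1 R9 cells over WT was the highest of any member in that comparison.

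Several complex I means rested on single cells. Ndufb9 had the highest mean of the complex averaged over the 3 sets, at 529 TPM in WT, 6255 in no-ending and 737 in ending-1 R9 cells, but 1 no-ending cell at 193739 TPM held 96.8% of that set's sum. Without it the no-ending mean was 208 TPM, and the log2 ratio to WT, with the highest cell left out in both sets, turned from 3.56 to -1.004. Ndufa10 went from 5.62 to 1.25 in the same way, with 1 cell at 125160 TPM. Ndufc2 had a mean of 3316 TPM in WT, of which 1 cell held 94.98%.

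Complex II, succinate dehydrogenase, is the only complex with no mitochondrially encoded subunit and links the chain to the citric acid cycle. Its 4 genes held a median 0.121% of TPM in WT, 0.0339% in no-ending and 0.161% in ending-1 R9 cells, and all 3 ranges overlapped. Sdha, the flavoprotein, was detected in 81.8% of WT, 68.8% of no-ending and 97.1% of ending-1 cells, with medians of 22.04, 57.7 and 16.98 TPM. Sdhb, the iron-sulfur subunit, was detected in 86.4%, 56.2% and 94.3%, with medians of 233, 52.4 and 505 TPM. Sdhc and Sdhd anchor the enzyme in the membrane: Sdhc had medians of 90.1, 30.2 and 5.77 TPM and Sdhd 38.3, 126 and 315 TPM. The 4 genes did not share an order of the sets by median level. The share of cells was lower by 25 points or more in no-ending cells than in WT for 1 of 4, Sdhb (background 17.3%). At 10 TPM it was so for 0 of 4 (background 5.79%).

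Complex III held a median 0.373% of TPM in WT, 0.146% in no-ending and 0.491% in ending-1 R9 cells, and the median cell detected 7, 4 and 8 of its 8 genes. The no-ending cells detected at most 6 of them and every ending-1 cell at least 6. Of the 8, 5 (62.5%, background 17.3%) were lower by 25 points or more in no-ending R9 cells than in WT at 1 TPM. At 10 TPM 3 were (background 5.79%). Uqcrc1, a core subunit, had lowest, median and highest values of 0, 372 and 8599 TPM in WT, 0, 148 and 1131 in no-ending, and 1.52, 614 and 3399 in ending-1 R9 cells. Uqcrh, the hinge protein whose promoter is shown above, was detected in 15 of 22, 12 of 32 and 33 of 35 cells, with medians of 97.8, 0 and 558 TPM. Uqcrfs1, the Rieske iron-sulfur protein, was detected in 81.8%, 56.2% and 94.3% of cells. Averaged over the 3 sets, the highest means belonged to the small subunits Uqcr11 (1770, 2587 and 1054 TPM), Uqcrq (705, 2319 and 532 TPM) and Uqcrb (753, 791 and 947 TPM), and 1 no-ending cell held 79.3% of that set's sum for Uqcr11, 50.8% for Uqcrq and 61.1% for Uqcrb.

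Complex IV, cytochrome c oxidase, held a median 1.16% of TPM in WT, 0.397% in no-ending and 1.09% in ending-1 R9 cells. Of its 13 members above the filter, 5 (38.5%, background 17.3%) were lower by 25 points or more in no-ending R9 cells than in WT at 1 TPM. At 10 TPM 4 were (background 5.79%). Cox6c, which regulates the enzyme, was near universal, at 95.5% of WT, 96.9% of no-ending and 100% of ending-1 cells, with medians of 1117, 436 and 2681 TPM. Cox6a1 was as broad, at 90.9%, 90.6% and 100%. Cox6b1, which links the monomers of the enzyme, was detected in 22 of 22, 19 of 32 and 34 of 35 cells, with medians of 1082, 188 and 1254 TPM. Cox7a2, Cox7b and Cox7c showed the same gap: Cox7a2 was detected in 90.9%, 46.9% and 100%, Cox7b in 77.3%, 31.2% and 82.9%, and Cox7c in 90.9%, 50% and 100% of cells. Within the same complex, near-equal detection of Cox6c and Cox6a1 thus stood beside shares lower by over 40 points for Cox6b1 and these 3 genes in the no-ending cells.

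The isoform pairs of complex IV were represented by the widespread copy. Cox4i1 was detected in 90.9%, 81.2% and 100% of cells at medians of 524, 266 and 1451 TPM, while Cox4i2, its low-oxygen copy, was listed at 0 in all 89 cells. Cox6a1 and Cox8a stood beside the muscle copies Cox6a2 and Cox8b in the same way, and Cox7b and Cox8a beside the testis copies Cox7b2 and Cox8c. Cox7a1, the heart and muscle copy, was the exception: it was detected in 3 of 22 WT cells and 7 of 35 ending-1 R9 cells (20%, 8.44% to 36.9%) and listed at 0 in all 32 no-ending cells, for which the exact upper bound was 10.9%. Cox6b2, the testis copy of Cox6b1, had a value in 1 WT cell only, 169 TPM. Cox7a2l, which sits in supercomplexes of III and IV, had a WT mean of 5814 TPM, of which 1 cell at 123639 TPM held 96.7%.

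Complex V showed the smallest of the 5 gaps between WT and no-ending R9 cells relative to the WT median, at a median 1.17% in WT, 0.822% in no-ending and 0.972% in ending-1 R9 cells. Its catalytic subunits were detected almost everywhere. Atp5b, the beta subunit, was detected in every cell of all 3 sets, with lowest, median and highest values of 4.71, 332 and 3834 TPM in WT, 25.2, 430 and 31503 in no-ending, and 3.14, 1065 and 4183 in ending-1 R9 cells. Atp5a1, the alpha subunit, was detected in 21 of 22, 32 of 32 and 35 of 35 cells, and Atp5f1, of the stalk, in 72.7%, 87.5% and 97.1%. These 3 were not detected less often in no-ending R9 cells than in WT.

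Other subunits behaved otherwise. Atp5k, a small subunit of the membrane part, was detected in 15 of 22, 8 of 32 and 29 of 35 cells, with medians of 243, 0 and 391 TPM, and Atp5h, of the stalk, in 16, 10 and 32 cells, with medians of 346, 0 and 571 TPM. Atp5e, of the rotor, was detected in 90.9%, 53.1% and 97.1%. The c ring is encoded by 3 genes for the same mature protein: Atp5g1 was detected in 68.2%, 43.8% and 85.7%, Atp5g2 in 45.5%, 21.9% and 71.4%, and Atp5g3 in 77.3%, 71.9% and 100% of cells. Atp5g3 had the highest median of the 3 copies in each set, at 264, 166 and 692 TPM. Of the 17 members, 5 (29.4%, background 17.3%) were lower by 25 points or more in no-ending R9 cells than in WT at 1 TPM. At 10 TPM 3 were (background 5.79%).

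**Figure D3:**
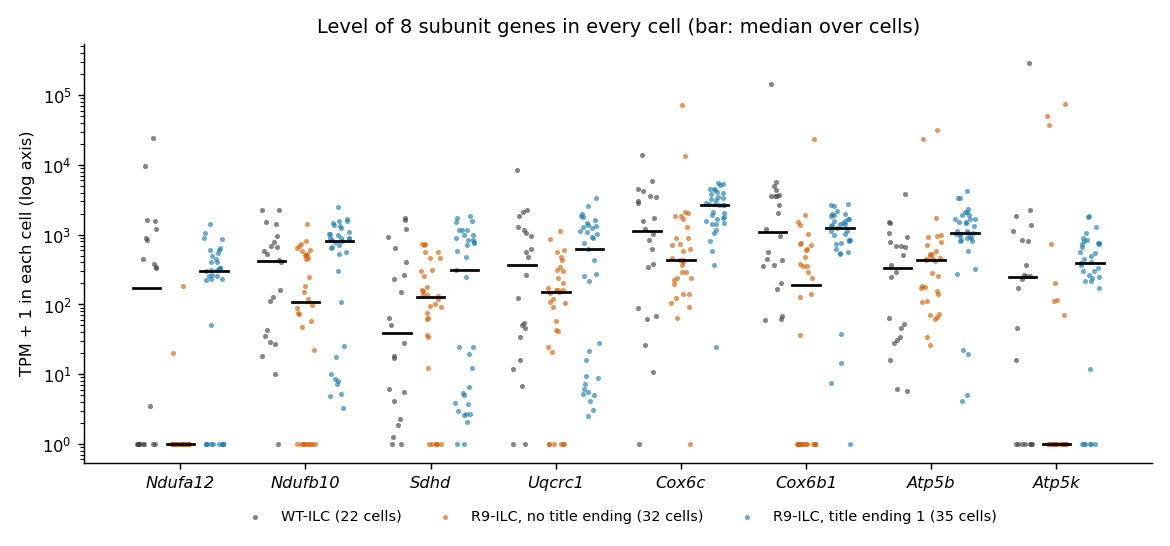
TPM + 1 (log axis) of 8 subunit genes in every cell, by set, with black bars at the median over cells. Atp5b has no cell at 0, Ndufa12 has 2 of 32 no-ending R9 cells above 0, and single WT or no-ending R9 cells lie 1 to 3 decades above the rest for Cox6b1, Cox6c and Atp5k.

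The summed level of the members was far more even in ending-1 R9 cells than in the other sets. The members held 1.24%, 5.57% and 30.2% of a cell's TPM in WT (lowest, median and highest), 0.242%, 3.19% and 30.3% in no-ending, and 3.05%, 4.41% and 8.09% in ending-1 R9 cells. Under 3% of TPM were 15 of the 32 no-ending cells, 1 WT cell and 0 ending-1 cells. Over 10% were 10 no-ending, 6 WT and 0 ending-1 cells. In 12 no-ending and 5 WT cells 1 member held 50% or more of the members' sum, and which member it was changed from cell to cell: in WT it was Atp5k, Atp5j2, Cox6b1, Ndufc2 and Cox7a2l, 1 cell each, and in no-ending R9 cells 12 different genes, with Atp5g3 at 28.4% and Ndufb9 at 19.4% of all TPM in their cells.

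**Figure D4:**
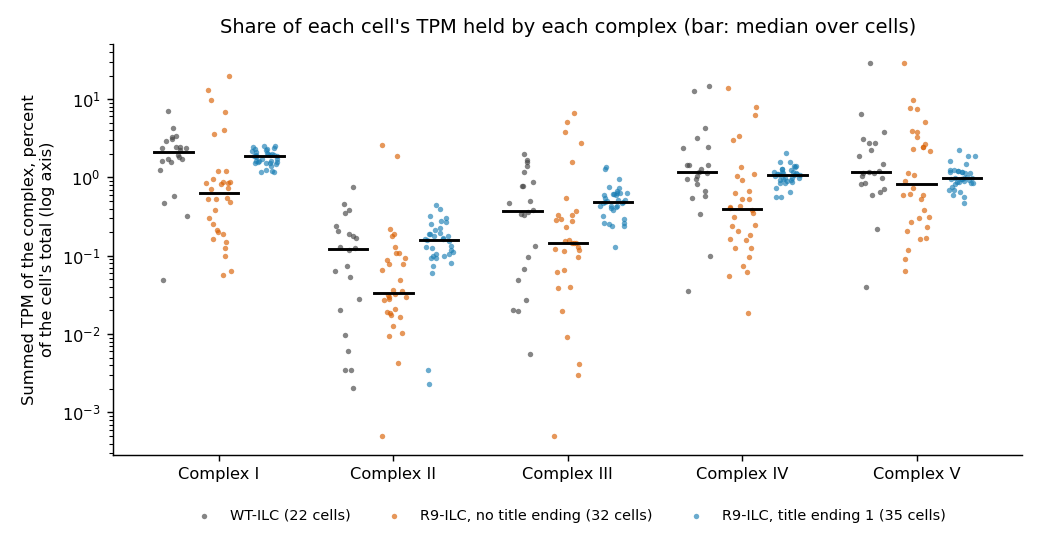
Summed TPM of each complex as a percent of the cell's total (log axis), 1 point per cell, with black bars at the median over cells and cells at 0 drawn at the lower edge. Ending-1 R9 cells form a narrow band in complexes I, IV and V, and the median of no-ending R9 cells is the lowest of the 3 in every complex.

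Per gene, the highest cell held a median 32.6% of the WT sum, 39.5% of the no-ending and 10.1% of the ending-1 sum. For genes in the same range of mean TPM the medians were 46.5%, 27.3% and 19.5%. In no-ending R9 cells, 1 cell held 50% or more for 32 of 77 members with a value (41.6%, against 24.6% of the genes in that range). The corresponding counts were 17 of 79 in WT (21.5% against 44.6%) and 1 of 78, Atp5s, in ending-1 R9 cells (1.28% against 9.37%).

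**Figure D5:**
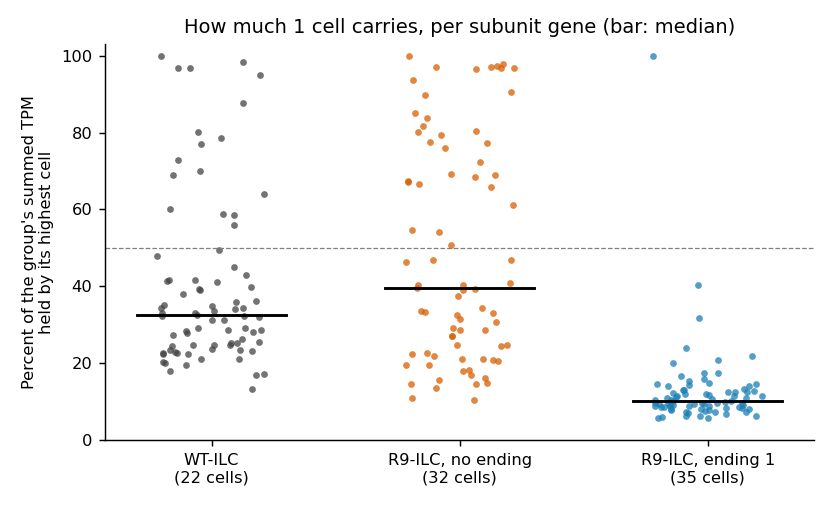
Percent of a set's summed TPM held by its highest cell, 1 point per subunit gene with a value in that set, with black bars at the median and a dashed line at 50%. Points in WT and no-ending R9 cells run up to 100%, and in ending-1 R9 cells 1 point lies above the line.

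Ratios of mean TPM, which those cells dominate, gave another picture. The median log2 ratio over the 79 members was -1.22 for no-ending R9 cells over WT, -0.02 for ending-1 R9 cells over WT and 1.29 for ending-1 over no-ending cells. The medians over all 10029 genes above the filter were -0.46, 0.89 and 1.64, so the members lay below them by 0.76, 0.92 and 0.34. Over genes in the members' range the medians were -0.90, 0.69 and 1.59, so for no-ending R9 cells over WT the members lay closer to these. Relative to the medians over all genes, and by 1 or more on the log2 scale, 19 members were higher and 31 lower in no-ending R9 cells than in WT. The backgrounds were 30% and 32.7% of all genes and 21% and 36.2% of genes in the members' range. For ending-1 R9 cells over WT, 2 were higher (Ndufs1 and Ndufs4) and 37 lower, with backgrounds of 32.3% and 29.4% of all genes and 16.6% and 28% in the range. For ending-1 over no-ending cells 11 were higher and 32 lower, with backgrounds of 26.5% and 30.4% of all genes and 20.9% and 24.7% in the range. The difference of means of log2(TPM + 1), in which single cells weigh less, gave member medians of -1.84, 1.16 and 2.75. Over all genes that difference had medians of -0.04, 0.22 and 0.27, and over genes in the members' range -0.11, 0.82 and 0.90. By mean TPM the members were thus below the median gene in both comparisons of ending-1 R9 cells, and by mean log values above it: against WT the counts of 2 higher and 37 lower became 39 and 2, and against no-ending cells those of 11 and 32 became 65 and 0. The shares of other genes past the limit by mean log values were not computed, so these later counts have no background.

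By complex, the median log2 ratios of mean TPM for no-ending R9 cells over WT were -1.42 for complex I, 0.12 for II, -0.08 for III, -1.04 for IV and -0.44 for V. For ending-1 R9 cells over WT they were 0.30, 0.18, 0.07, -0.48 and -0.53 in the same order, and for ending-1 over no-ending cells 1.72, 0.46, 0.25, 0.73 and -0.25. With the highest cell of every gene and set removed, the values were -1.39, -0.86, -1.07, -1.39 and -0.72 for no-ending R9 cells over WT, so complexes II and III then lay below 0 as well. The same removal turned complex V from -0.53 to 0.16 and moved complex IV to 0 for ending-1 R9 cells over WT. For ending-1 over no-ending cells it gave 2.26, 1.42, 1.90, 1.66 and 1.34, so complex V turned there too. Differences between complexes were not tested.

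Other gene groups were read in the same way. Of 79 cytosolic ribosomal protein genes, 23 were detected in fewer no-ending R9 cells than WT cells by 25 points or more and 2 in more by as much. Of 40 proteasome subunit genes the counts were 6 and 1, against 37 and 0 of the 79 subunit genes. The lower shares were 29.1%, 15% and 46.8%, beside 17.3% of genes in the members' range of mean TPM. At 10 TPM the lower counts were 12 of 79, 2 of 40 and 24 of 79 (background 5.79%). Between the R9 series, 50 ribosomal and 22 proteasome genes were detected in more ending-1 cells by 25 points or more. These shares were 63.3% and 55%, against 75.9% of the subunit genes and a background of 37.7%. Assembly factors, which build the complexes and are not part of them, were detected in few cells of any set (median gene 22.7% of WT, 15.6% of no-ending and 25.7% of ending-1 cells). Of these factors, 3 of 35 (8.57%) were lower by 25 points or more in no-ending cells than in WT. Of 10 further chain genes with other symbols, 3 (30%) were lower by as much at 1 TPM. Among them Usmg5, a subunit of the ATP synthase, was detected in 63.6%, 15.6% and 91.4% of cells. The 11 regulators of mitochondrial genes above the filter were detected in few cells (median gene 13.6%, 9.38% and 11.4%), so for most of them a share 25 points below WT could not arise, which also limits the count for assembly factors. Nrf1 was detected in 27.3%, 25% and 8.57% of cells, and Tfam, which packages mitochondrial DNA, in 40.9%, 31.2% and 34.3%. The mitochondrial genome gave 0 entries.

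Exons of 30 members overlap those of another annotated gene, for 22 of them a gene that is also listed in the tables. Strand handling is not given in the sources used here, so reads of Atp5a1 and Haus1, Atp5j and Gabpa, Cox4i1 and Emc8, Cox6c and Vps13b, Ndufa2 and Tmco6 or Ndufs3 and Kbtbd4 could have been assigned to either gene.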

How the data were processed

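The authors deposited TPM for single cells in 2 tables, with 67 R9 and 31 WT columns, each summing to 1e+06. Per the submitters' processing notes, the tools were StringTie 1.3.4, HISAT2 2.1.0, bcl2fastq and SAMtools 0.1.19, and the build was mm10. Per the labels' protocols, the Discover-sc WTA Kit V2 made the cDNA and a TruePrep kit of Vazyme the libraries. The tables were normalized separately, so every R9 to WT ratio is a level set across tables, and TPM gives no depth.

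Within a group, columns correlated at r over 0.8 (Pearson, log2 scale), across genes at 1 TPM or more in both, were averaged as 1 cell (8 WT cells). One WT column has a name without an ending and was assigned to WT only as a group. Ratios are log2((mean TPM + 1)/(mean TPM + 1)), which understates differences of low genes. Genes needed a mean of 1 TPM over the 3 sets, and the range of comparison was the 10th to 90th percentile of the members' means (53.5 to 1772 TPM). Counts of detection used 25 percentage points, a limit chosen after seeing the data, as were these counts at 10 TPM and in subsets of cells or columns. The ratio calculation was tested on simulated data.

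Genes named with values were the 3 highest means per complex, the 2 largest ratios in each direction and comparison among members detected in 50% of the higher set, isoform families, complex II, and up to 4 genes of each other list. Further members were named after their values were seen. The members and lists were chosen with earlier results of these data known. Symbols were matched to GRCm38, the same assembly as mm10. Figures were drawn with matplotlib 3.10.9, and values came from pandas 2.3.3, numpy 2.4.6 and scipy 1.17.1 under Python 3.11.15.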

Additional observations from a re-analysis of the deposited data

How the results depend on the processing

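Of 393 values recomputed under other settings, 341 were counted as unchanged, 51 moved further and 1 reversed. A median was counted as unchanged if it moved by less than the SD over cells of its list's mean log2(TPM + 1). That SD is not the spread of the ratio itself. For values per cell the SD over cells was used, and counts of members had to be equal or within a fixed factor. A reversal was counted only where a median of at least 1 in size changed sign; of 270 recomputed medians, 43 had another sign than the reported one, all but the reversed one from a reported median under 1 in size. Values below are log2 medians, or counts of members at least 1 on the log2 scale above or below the median gene. The share of all genes past that limit was not computed under these settings. The counts therefore show only how far the reported counts depend on the setting, and not a difference of the members from other genes. The causes were not tested. Without cells at 1000 TPM of epithelial markers, the complex IV median for no-ending R9 cells over WT reversed to 0.14, complexes IV and V for ending-1 over no-ending cells became 1.55 and 1.22, and 6 members were higher in ending-1 R9 cells than in WT. Without cells with a gene at 10% of TPM, complexes III and V for ending-1 over no-ending cells became -1.57 and 1.54. Detection at 10 TPM lowered the median for ending-1 R9 cells to 51 members. Means of log2 values gave, for ending-1 over no-ending cells, 2.75 for all members and 3.40, 3.04, 2.69 and 2.38 for complexes I, III, IV and V, and counts higher and lower of 65 and 0, of 39 and 2 for ending-1 R9 cells over WT, and of 3 and 51 for no-ending R9 cells over WT. Without each gene's highest cell, complexes IV and V for ending-1 over no-ending cells were 1.66 and 1.34, and those counts were 31 and 5, 7 and 15, and 5 and 54. Without a filter on low values they were 43 and 14 for the R9 series and 9 and 15 for ending-1 R9 cells over WT. A pseudocount of 10 TPM gave 23 higher between the R9 series, and 4 and 23 for ending-1 R9 cells over WT. Medians over cells gave 3.24 for all members and 4.08, 3.05, 2.63 and 2.26 for complexes I, III, IV and V between the R9 series, with counts of 66 and 6, 42 and 3, and 9 and 50. Scaling by 262 common genes gave -2.97, -1.39 and -2.44 for complexes III, IV and V between the R9 series, -2.04 for all members and -2.14, -4.14 and -3.93 for those complexes in ending-1 R9 cells over WT, and -3.01 for complex IV in no-ending R9 cells over WT. The median over all genes ranged from -1.23 to 0.15, from 0 to 1.84 and from 0 to 2.25 over the settings for the 3 comparisons.

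No paired analysis was possible because the values come from no test, and cell numbers in the titles name cells and do not link WT with R9 animals. Leaving out single cells was done per gene, for the highest cell. Depth per cell is unknown, so a member listed at 0 is not shown to be absent.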
